A study of Mus musculus with 2 samples.

Results

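The genes described are the mouse collagen chains other than type IV, taken by symbol: Col, a number, the letter a and a number with nothing after it, leaving out Col4a1 to Col4a6. The rule found 38 genes among the 32285 genes listed. It used no measured value, though the set was chosen with earlier results of these data known. Levels were tested between cell classes. Counts of unique molecular identifiers (UMIs, 1 per captured RNA molecule) came from 2 single-cell RNA-seq libraries of mouse kidney at postnatal day 0, called replicate 1 and replicate 2. Both libraries carry the label Rbpj c/+ ; Foxd1cre/+, which gives every cell 1 conditional allele of Rbpj, the transcription factor through which Notch receptors act, and 1 allele of Foxd1 that drives Cre recombinase. Foxd1 marks the stromal progenitors of the kidney, so recombination of the Rbpj allele is directed to that lineage. The lineage includes the stroma and most mural cells. Podocytes also held Foxd1 RNA in these libraries, so recombination there is possible too. In all cells 1 normal Rbpj allele remains. Recombination was not measured, so cell class and Rbpj dose cannot be told apart where these classes are compared with others. There is 1 group with n = 2 and libraries of other genotypes were not analysed here. The comparisons are therefore between cell classes of the same libraries, and the labels do not say whether the libraries came from separate animals.

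Collagens are trimers of chains wound into a triple helix. Fibrillar collagens (types I, II, III, V and XI) build the rope-like fibrils of connective tissue, and the FACITs, collagens with interrupted helices such as types IX, XII, XIV and XVI, decorate their surface. Type VI forms beaded microfilaments around cells, the multiplexins XV and XVIII sit in or beside basement membranes and release anti-angiogenic fragments, type VIII forms networks under vessel linings, type VII forms anchoring fibrils, and types XIII, XXIII and XXV span the cell membrane. In the developing kidney the fibrillar chains are best known from the interstitial stroma.

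Barcodes counted as cells when they had 3000 or more UMIs, 500 or more genes and no more than 20% of UMIs from mitochondrial genes, 5529 in replicate 1 and 4206 in replicate 2, with medians of 15016 and 20007.5 UMIs. Of the cell barcodes, 6 occurred in both libraries. Cells were assigned by marker genes that hold no collagen. The cells were picked by these markers, so a higher level there does not test the gates. Marker levels were compared with the stromal, mural and endothelial subclasses each pooled. The markers of each such class were at least 2-fold higher in it than in the average of the other classes (5 CPM added to both). Single other classes can exceed that average: Foxd1, a stromal marker, stood at 183 and 176 CPM in podocytes, about its level in Foxd1-positive stroma (174 and 195 CPM). Stromal cells were split into those with a Foxd1 UMI (390 and 447 cells), those with a Penk UMI and no Foxd1 UMI (342 and 302 cells) and the rest (222 and 136 cells). Mural cells were pericytes and mesangial cells (203 and 153), renin cells (26 and 29) and smooth muscle (55 and 15). Endothelium was split by a Plvap UMI into Plvap-positive (578 and 558) and Plvap-low cells (112 and 41). Epithelial classes were nephron progenitors (604 and 353), early nephron (589 and 258), podocytes (362 and 183), proximal tubule (361 and 253), loop of Henle and distal tubule (329 and 483), ureteric and collecting duct (205 and 200) and intercalated cells (93 and 66). Levels are counts per 1000000 UMIs (CPM) of the summed class, given for replicate 1 first. A 3' UMI count does not scale with transcript length, but capture can differ between genes, so levels of different genes are compared only roughly. In sums of this kind, fewer expressing cells and less RNA per cell cannot be told apart unless the share of cells is given too.

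Of the 38 collagens, 31 reached a mean of at least 10 CPM in at least 1 class: 11 of 11 fibrillar chains, 6 of 9 FACITs, 4 of 6 type VI chains, both multiplexins, 2 of 3 network chains, Col7a1, 3 of 4 transmembrane chains, and both Col26a1 and Col28a1. Together the 38 genes made up 0.692% and 0.631% of all UMIs in Foxd1-positive stroma and 0.852% and 0.763% in Penk-positive stroma. The share was 0.359% and 0.431% in pericytes and mesangial cells, 0.0631% and 0.0669% in Plvap-positive endothelium, 0.0923% and 0.0967% in podocytes and 0.0289% and 0.0291% in loop of Henle and distal tubule. Stroma was thus the richest compartment and the loop of Henle the poorest of the epithelial classes in both libraries. The 3 chains of types I and III (Col1a1, Col1a2, Col3a1) supplied 59.4% to 68.8% of the collagen UMIs of the stromal classes. In Plvap-positive endothelium they supplied 4.25% and 2.70%, and in podocytes 40.2% and 41.8%.

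**Figure D1:**
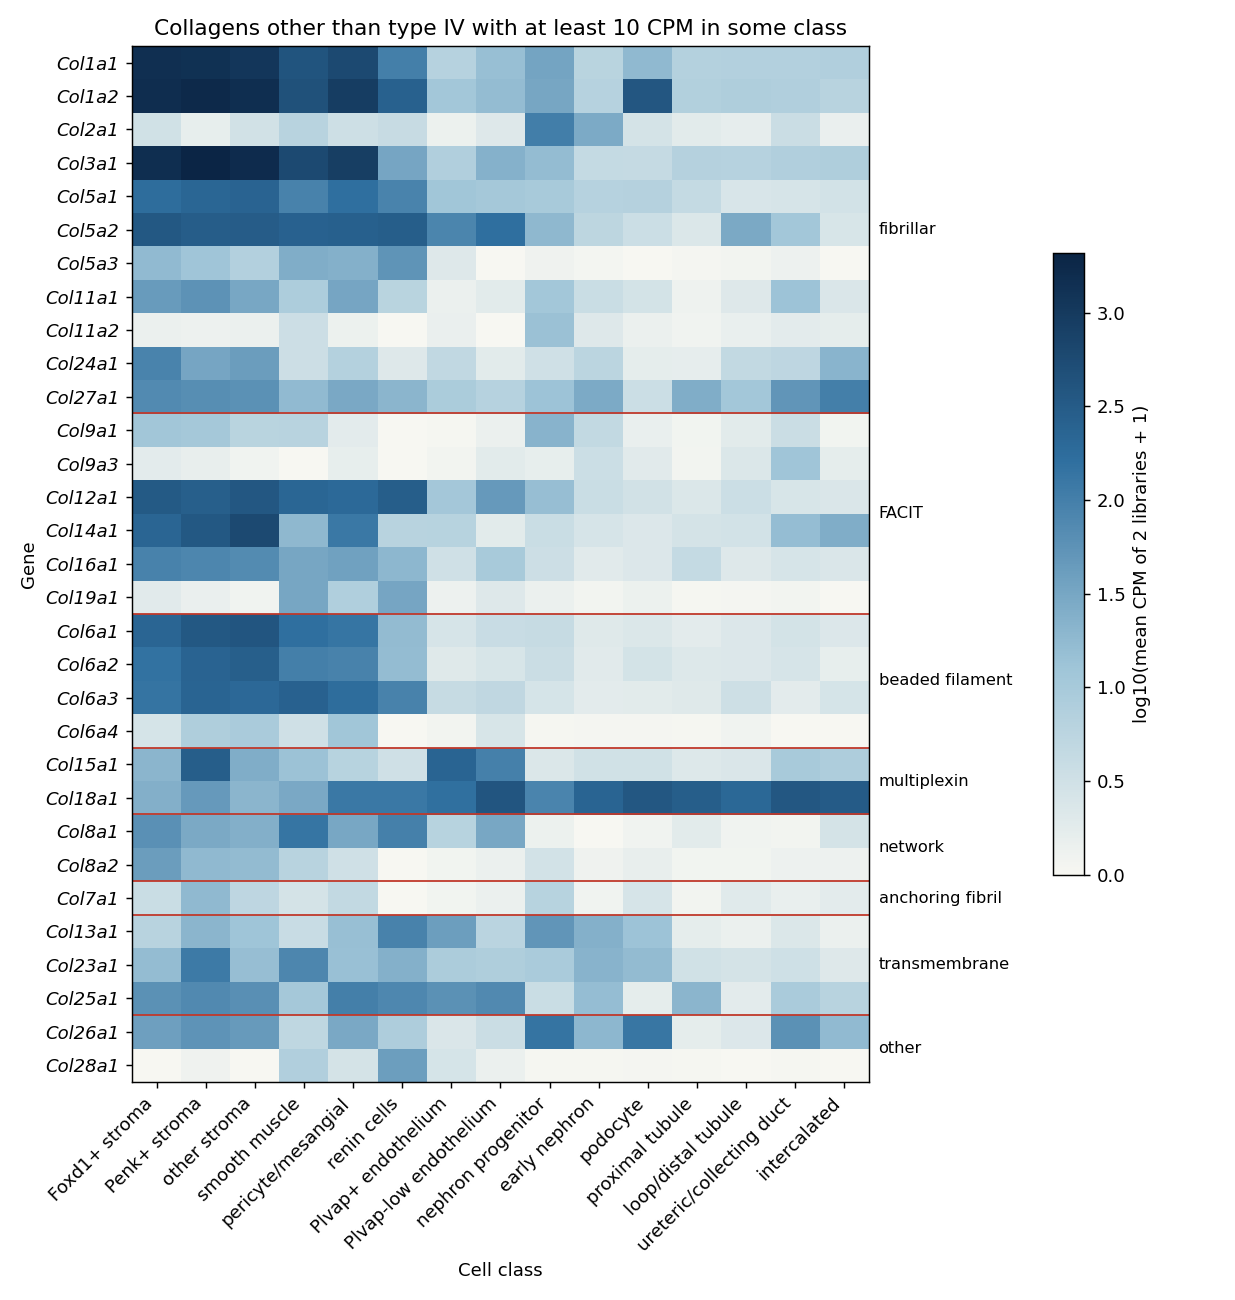
Mean level over both libraries, as log10(CPM + 1), of the 31 collagens with at least 10 CPM in some class (rows, divided by structural group) in 15 cell classes (columns; darker is higher). Types I, III, V, VI, XII and XIV are dark in the stromal columns, Col18a1 in the epithelial columns, Col2a1 in nephron progenitors and Col1a2 also in podocytes.

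Stroma stood highest for most collagens. Stromal classes were compared with the 7 epithelial classes in 1 edgeR quasi-likelihood fit over 16 classes, each arm being the unweighted mean of its classes on the log scale, and p-values were adjusted by Benjamini-Hochberg over 16740 genes. The SE was taken from the fold change and its F statistic. It covers the spread between the 2 libraries that is left after removing any shift common to all classes. That spread may be technical, and the SE does not cover the spread between classes. Comparisons that name the same class share its sums. Where a value is given without a replicate, that library's sums were left out for the first-named classes alone. Of 35 collagens tested, 27 were higher in stroma, where 31.3% of all genes were, and 5 were lower, where 34.9% of all genes were. The median log2 difference was 4.01 over the collagens and -0.08 over all genes. Of the fibrillar chains 9 of 11 were higher, as were 5 of 8 FACITs, 5 of 6 type VI chains, all 3 transmembrane chains tested, both network chains tested, Col7a1, Col15a1 and Col26a1. The 5 lower ones were Col18a1, Col2a1, Col9a3, Col20a1 and Col11a2.

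Among the fibrillar chains, Col3a1, the single chain of type III collagen, had the largest difference. Its level was 1645 and 1325 CPM in Foxd1-positive stroma, 2287 and 1871 in Penk-positive stroma, 1406 and 1826 in the remaining stroma, and 2.73 to 27.1 CPM across the epithelial classes (log2 difference 8.17, SE 0.24, edgeR adjusted p = 1.42e-19). Each stromal value lay above each epithelial value. Col1a1, the chain present in more copies in the type I trimer, stood at 1532 and 1331 CPM in Foxd1-positive stroma and 1521 and 1192 in Penk-positive stroma, with a log2 difference of 7.17 (SE 0.15, edgeR adjusted p = 1.85e-22). Col1a2, its partner chain, stood at 1586 and 1442 CPM and at 1860 and 1629 CPM in the same classes (log2 difference 6.81, SE 0.20). Its epithelial levels were 3.81 to 8.87 CPM outside podocytes and nephron progenitors. Type V collagen, which seeds and limits type I fibrils, was represented by Col5a1 (log2 difference 5.95, SE 0.10) and Col5a2 (5.87, SE 0.11), with 180 and 160 CPM and with 372 and 334 CPM in Foxd1-positive stroma. Col5a3 was lower, at 26.4 and 6.65 CPM there, and its log2 difference of 6.79 rests on 2 epithelial classes with no count. Col11a1 (4.17, SE 0.17), Col24a1 (4.01, SE 0.13) and Col27a1 (1.67, SE 0.14) were also higher in stroma, and Col2a1 and Col11a2 were the fibrillar chains that were lower (-1.30 and -1.16). The lower call of Col2a1 was lost without replicate 2 (log2 difference -0.95, edgeR adjusted p = 0.19), as was that of Col11a2 (-0.60, adjusted p = 0.44).

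In the epithelial tubule classes, from early nephron to intercalated cells and without podocytes, Col1a1, Col1a2 and Col3a1 stood between 2.73 and 9.67 CPM in both libraries. The level that free RNA at the UMI load of barcodes without cells would give there was 0.65 to 1.33 CPM. The 3 chains exceeded that estimate several-fold. A second estimate, which assigns all haemoglobin counts of a class to free RNA, gave 1.66 to 51.9 CPM, and only 12 of the 30 values (3 chains, 5 classes, 2 libraries) lay above it. None of those 12 was in early nephron or proximal tubule. The second estimate thus leaves most of these low epithelial levels within what free RNA could give, and whether droplets that also held stromal RNA contributed was not tested.

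The promoter of Col3a1 is shown as the gene with the largest stromal difference. It is the 250 bases before the RefSeq start at chr1:45311288-45311537 (GRCm38.p6, plus strand), free of annotated exons, and capitals mark matches on either strand to ACAAAG, the core bound by SOX factors, and to TATAAA.
Col3a1: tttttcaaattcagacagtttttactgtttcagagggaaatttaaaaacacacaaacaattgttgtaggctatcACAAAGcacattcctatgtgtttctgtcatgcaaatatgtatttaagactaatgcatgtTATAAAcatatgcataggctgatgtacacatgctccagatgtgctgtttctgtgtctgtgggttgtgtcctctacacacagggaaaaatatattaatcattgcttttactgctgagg
The 4 motifs searched in such windows, read on both strands, were the SOX core ACAAAG, the TATA box TATAAA, the GC box GGGCGG and the CCAAT box. The RefSeq table held windows for 30 of the 38 collagens, 33 windows in all, and 32851 windows over all genes. GGGCGG was found in 19 of the 33 collagen windows (57.6%) and in 32.7% of all windows. CCAAT was in 10 (30.3%, against 33.8%), TATAAA in 5 (15.2%, against 12.4%) and ACAAAG in 4 (12.1%, against 16.5%). The Col3a1 window holds no GGGCGG. A match describes the letters and was not tested as a binding site.

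The beaded-filament chains followed types I and III. Type VI collagen is assembled from Col6a1 and Col6a2 together with Col6a3 or one of Col6a4, Col6a5 and Col6a6. Col6a1 stood at 229 and 219 CPM in Foxd1-positive stroma, 357 and 353 in Penk-positive stroma and 351 and 425 in the remaining stroma, against 0.28 to 4.60 CPM across epithelial classes (log2 difference 7.85, SE 0.17, edgeR adjusted p = 6.27e-22). Col6a2 had 143 and 156, 229 and 248, and 270 and 281 CPM in the same stromal classes (7.33, SE 0.16), and Col6a3 had 142 and 137, 250 and 209, and 203 and 201 CPM (7.26, SE 0.19). The ratio of Col6a1 to Col6a2 UMIs was 1.30 to 1.6 in the 6 stromal sums. Col6a4 was higher in stroma (6.37, SE 0.48, with 2 epithelial classes at 0) and reached its highest level, 10.4 and 11.5 CPM, in pericytes and mesangial cells. Col6a6 was also higher (3.84, SE 0.52), at 14.4 and 3.60 CPM in Penk-positive stroma, and Col6a5 did not pass the test (2.20, adjusted p = 1) at no more than 3.02 CPM. Col6a6, Col6a5 and Col6a4 lie side by side on the minus strand of chromosome 9 (GRCm38), 27917 and 28810 bases apart.

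Among the 8 FACITs tested, Col12a1, Col14a1 and Col16a1 were the most abundant in stroma. Col12a1, which binds fibril surfaces, had 299 and 355 CPM in Foxd1-positive stroma against 0.94 to 18.1 CPM across epithelial classes (log2 difference 6.98, SE 0.13, edgeR adjusted p = 4.09e-23). Col14a1 was highest in the stroma with neither Foxd1 nor Penk, at 492 and 682 CPM, and stood at 237 and 214 in Foxd1-positive stroma (6.59, SE 0.15). It was also detected in intercalated cells (26.7 and 22.7 CPM), ureteric and collecting duct (18.0 and 11.6) and macrophages (34.7 and 48.6), well above the other tubule classes. Col16a1 was at 86.3 and 93.1 CPM in Foxd1-positive stroma (5.61, SE 0.15). Col9a1 (2.70, SE 0.33) and Col9a2 (2.70, SE 0.34), chains of the cartilage-type FACIT IX, were higher in stroma at low levels, 3.50 to 14.1 and 1.21 to 9.20 CPM. Col9a3, their partner, was lower (-1.30, SE 0.50). That last call was lost without either library (adjusted p = 0.062 without replicate 1 and 0.21 without replicate 2), and Col19a1 did not pass the test (1.81, adjusted p = 0.14).

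Of the remaining groups, Col8a1 (log2 difference 6.97, SE 0.37, with 1 epithelial class at 0) and Col8a2 (5.79, SE 0.19) were higher in stroma. Col8a2 was highest in Foxd1-positive stroma at 35.3 and 44.7 CPM, and Col8a1 stood there at 55.8 and 64.6 CPM. The transmembrane chains Col25a1 (3.93, SE 0.19), Col23a1 (2.72, SE 0.24) and Col13a1 (1.70, SE 0.35) were higher, as were Col7a1 (2.89, SE 0.29) and Col26a1 (1.41, SE 0.15). For Col13a1 and Col26a1 the call depends on how epithelial classes are weighted: both had high levels in nephron progenitors, so the plain mean of the epithelial levels in replicate 1 (14.4 and 53.2 CPM) exceeded that of stroma (9.95 and 34.7 CPM), and with counts summed over compartments the log2 differences were -0.60 and -0.083, neither called.

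Podocytes held far more Col1a2 than Col1a1, its partner chain, or Col3a1. Podocytes are the epithelial cells that cover the glomerular capillaries. Col1a2 stood at 352 and 383 CPM in podocytes, against 15.4 and 18.3 CPM of Col1a1 and 2.88 and 3.51 CPM of Col3a1. Both podocyte values of Col1a2 exceeded those of every other epithelial class, the next being 12.8 and 47.6 CPM in nephron progenitors. Against the other epithelial classes the log2 difference of Col1a2 was 5.55 (SE 0.25, edgeR adjusted p = 1.06e-15), that of Col1a1 was 1.10 (SE 0.27, adjusted p = 0.00134), and Col3a1 was not called (-0.99, adjusted p = 0.20). After thinning each cell to 3000 UMIs, Col1a2 had a UMI in 52.8% (exact 95% interval 47.5 to 58.0) and 50.8% (43.3 to 58.3) of podocytes. In proximal tubule cells, thinned to the same depth, the shares were 0.554% and 2.77%. Unthinned, the podocyte shares were 79.0% and 80.3% at median depths of 9272 and 13754 UMIs, and the proximal tubule shares 12.5% and 22.9% at 33310 and 41668 UMIs. Col1a1 had a UMI in 4.42% and 3.83% of the thinned podocytes.

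The ratio of Col1a1 to Col1a2 UMIs was 0.0437 (exact 95% interval 0.0357 to 0.0531) and 0.0479 (0.0373 to 0.0606) in podocytes. In the 6 stromal sums it lay between 0.732 and 0.965, and in barcodes without cells it was 0.982 and 0.852. The podocyte intervals overlapped none of the others plotted. Among the other classes the lowest ratios were 0.288 and 0.495 in renin cells. The stromal gate marker Pdgfra stood at 0.14 and 0.75 CPM in podocytes, against 173 and 171 CPM in Foxd1-positive stroma. Outside the gate markers, Dcn stood at 0.58 and 1.51 CPM in podocytes, against 332 and 295 CPM in that stroma. Mgp stood at 34.4 and 23.6 CPM in podocytes, against 1456 and 1420 CPM there, and at 2.27 and 6.66 CPM in proximal tubule. The sum of the 9 stromal gate markers in podocytes was 1023 and 869 CPM, with 1 of 9 at 0. Of that sum Foxd1 gave 183 and 176 CPM and Cdh11 241 and 158 CPM, and other gate markers gave the rest. The part of stromal RNA in the Col1a2 level was not tested. Col1a2 lies at chromosome 6, bases 4504814 to 4541544 on the plus strand (GRCm38), and no other annotated gene overlaps its last 1000 bases, where 3' reads fall.

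**Figure D2:**
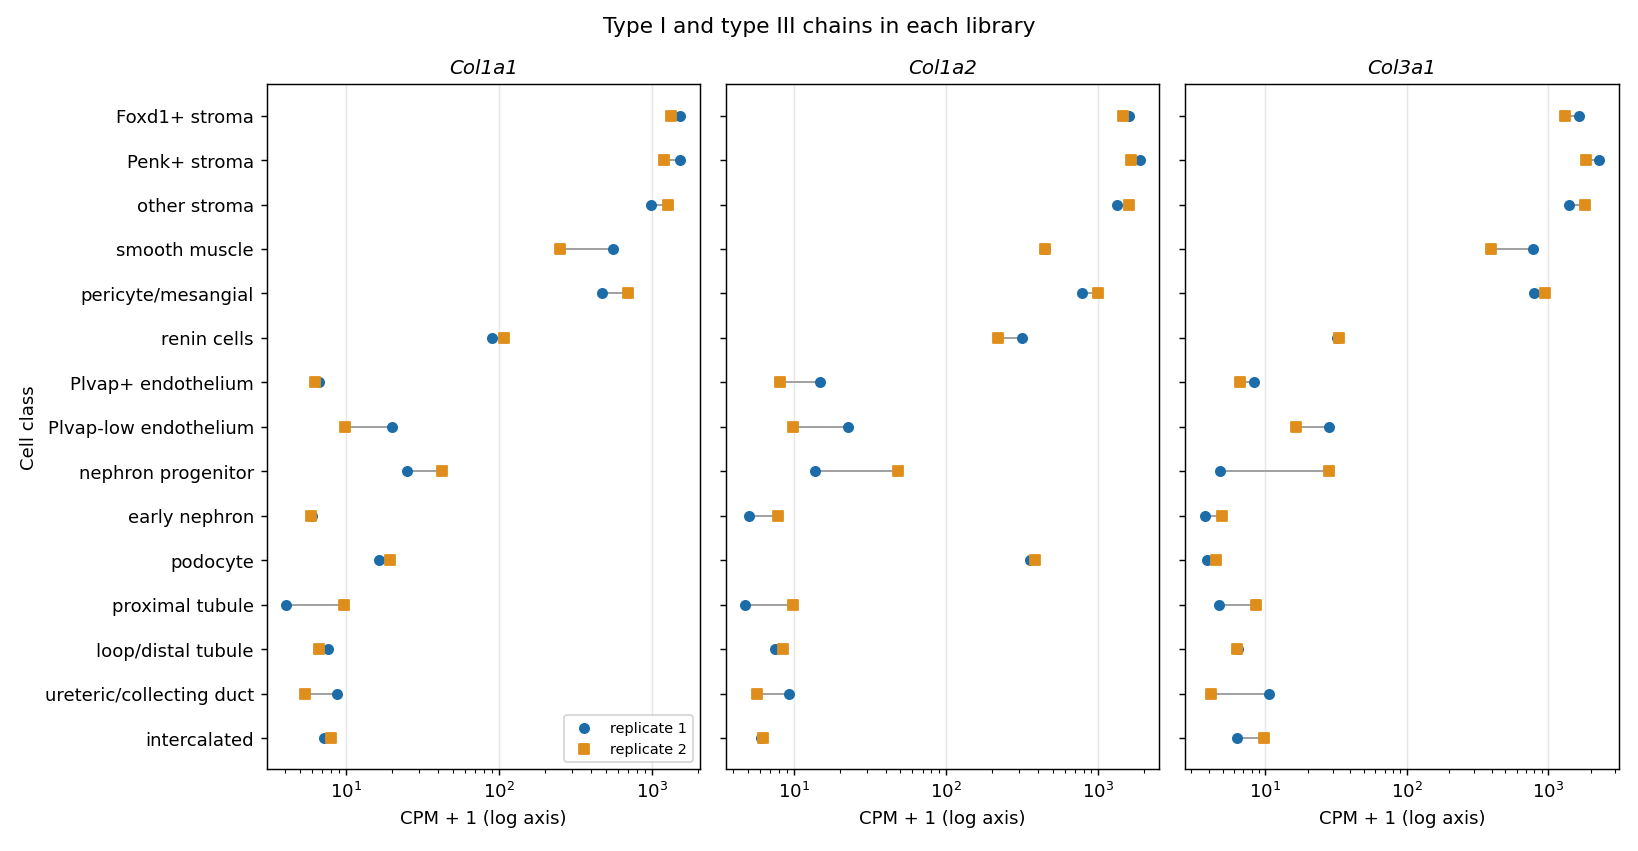
Level of Col1a1, Col1a2 and Col3a1 (CPM + 1, log axis) in 15 cell classes, with a circle for replicate 1 and a square for replicate 2 joined by a line. The 3 genes are alike in the stromal classes, while in podocytes Col1a2 stands at 352 and 383 CPM and the other 2 at under 20 CPM.

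**Figure D3:**
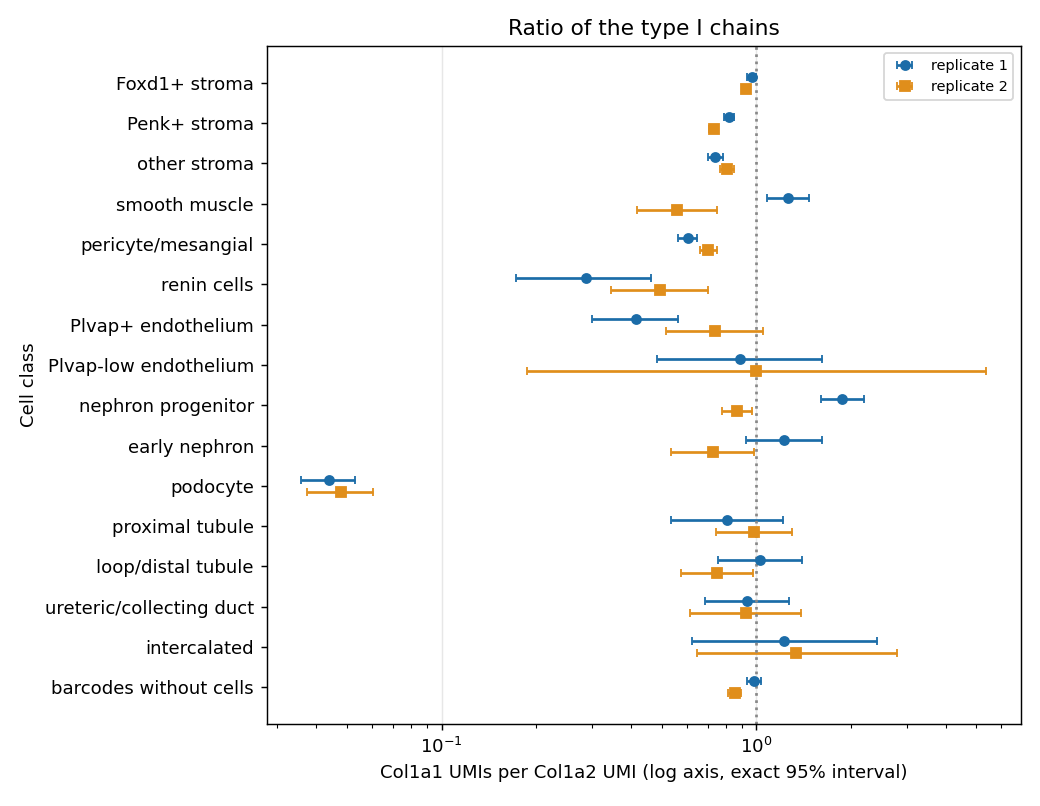
Col1a1 UMIs per Col1a2 UMI (log axis) in 15 cell classes and in barcodes without cells, per library, with exact 95% intervals that cover counting error only. Both podocyte points lie below 0.05, and the other points lie between 0.288 and 1.87.

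In all, 14 of 35 collagens differed between podocytes and the other epithelial classes, 9 higher (26.4% of all genes were higher) and 5 lower (27.6%). The median log2 difference was 0.10, against -0.07 over all genes. Besides Col1a2 and Col1a1, the higher ones were Col26a1 (118 and 146 CPM; 3.53, SE 0.18), Col23a1 (2.30, SE 0.33), Col13a1 (2.43, SE 0.44), Col18a1 (0.68, SE 0.11), Col5a1 (0.85), Col20a1 (1.02) and Col7a1 (1.28). Col13a1 stood at 18.1 and 6.02 CPM, where the plain means of the other classes were 13.7 and 11.5, so its direction depends on averaging logs, and without replicate 1 its difference was 1.13 with an adjusted p of 0.21. The calls of Col20a1 and Col7a1 were lost without either library (adjusted p of 0.077 to 0.32), and that of Col5a1 without replicate 2 (0.43, adjusted p = 0.35). The lower ones were Col27a1 (-3.54, SE 0.36), Col25a1 (-3.03, SE 0.70), Col24a1 (-2.10), Col14a1 (-1.6) and Col5a2 (-1.22). Col14a1 was not called without replicate 2 (-1.15, adjusted p = 0.12) and Col5a2 not without replicate 1 (-1.14, adjusted p = 0.096).

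Nephron progenitors, the Six2-expressing cells that give rise to the nephron, held a set of chains best known from cartilage. Col2a1, the chain of type II collagen, stood at 100 and 106 CPM, followed by 25.9 and 28.7 CPM in early nephron and 0.28 to 2.95 CPM in the other 5 epithelial classes. The log2 difference from the other epithelial classes was 5.78 (SE 0.22, edgeR adjusted p = 4.19e-16). Col9a1, a FACIT that binds type II fibrils, stood at 20.9 and 20.1 CPM (4.72, SE 0.28), and Col11a2, a minor fibrillar chain that assembles with type II, at 11.4 and 14.7 CPM (4.50, SE 0.25). Col11a1, which trimerises with Col11a2, had 11.4 and 9.07 CPM (2.53, SE 0.24) and was higher still in Foxd1-positive stroma, at 49.8 and 35.1 CPM. The other chains of type IX were low there: Col9a2 stood at 1.54 and 1.02 CPM and Col9a3 at 0.67 and 0.54 CPM in nephron progenitors. In cells thinned to 3000 UMIs, Col2a1 had a UMI in 22.7% (19.4 to 26.2) and 21.5% (17.4 to 26.2) of nephron progenitors and in 4.41% and 4.26% of early nephron cells. The share was 0% and 0.179% in Plvap-positive endothelium, where 0 of 578 cells has an exact interval up to 0.636%. Unthinned, 75.7% and 83.0% of nephron progenitors had a Col2a1 UMI at median depths of 18295 and 25134 UMIs, against 0.346% and 0.896% of Plvap-positive endothelial cells at 11291.5 and 13293 UMIs.

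The membrane-spanning Col13a1 was also high in nephron progenitors, at 51.7 and 50.2 CPM (4.66, SE 0.31), with 27.0 and 17.1 CPM in early nephron. Col26a1, a secreted protein with short collagenous stretches, stood at 146 and 131 CPM in nephron progenitors (3.58, SE 0.17) and at a like level, 118 and 146 CPM, in podocytes, whereas early nephron held 23.4 and 12.2 CPM. It was detected in the ureteric and collecting duct too, at 64.2 and 49.9 CPM, and its level in proximal tubule was 0.73 and 0.66 CPM.

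Promoter windows of 3 of these chains are shown to set side by side genes called higher in nephron progenitors than in the other epithelial classes. They are the 250 bases before the RefSeq start (GRCm38.p6): Col9a1 at chr1:24177360-24177609 (plus strand, the first of 2 starts), Col11a2 at chr17:34038888-34039137 (plus strand) and Col13a1 at chr10:61979109-61979358 (minus strand). Capitals mark matches on either strand to the same 4 motifs.
Col9a1: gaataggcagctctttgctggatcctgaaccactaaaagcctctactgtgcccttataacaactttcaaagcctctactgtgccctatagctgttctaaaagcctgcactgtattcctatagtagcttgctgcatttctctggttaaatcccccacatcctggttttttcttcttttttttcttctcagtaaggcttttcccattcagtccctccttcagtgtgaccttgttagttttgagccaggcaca
Col11a2: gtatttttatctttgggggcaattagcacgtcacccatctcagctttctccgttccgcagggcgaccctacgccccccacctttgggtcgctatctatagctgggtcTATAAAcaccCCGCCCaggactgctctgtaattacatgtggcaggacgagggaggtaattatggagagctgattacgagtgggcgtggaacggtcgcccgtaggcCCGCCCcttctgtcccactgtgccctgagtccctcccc
Col13a1: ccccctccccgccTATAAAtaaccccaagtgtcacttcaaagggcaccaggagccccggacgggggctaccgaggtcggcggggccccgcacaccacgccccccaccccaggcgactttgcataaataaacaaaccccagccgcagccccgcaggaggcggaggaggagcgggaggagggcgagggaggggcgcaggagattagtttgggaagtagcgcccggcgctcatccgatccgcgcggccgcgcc
The Col11a2 window holds 1 TATAAA and 2 copies of the reverse of GGGCGG, the Col13a1 window 1 TATAAA, and this Col9a1 window none of the 4 motifs. The letters ACAAAG are in none of the 3.

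In all, 19 collagens were higher in nephron progenitors than in the other epithelial classes, where 30.5% of all genes were, and 4 were lower, where 29.2% were. The median log2 difference was 1.22 over the collagens and -0.01 over all genes. The higher ones included 8 of 11 fibrillar chains. Among those not yet named, Col7a1 (3.28, SE 0.31), Col12a1 (2.93, SE 0.20), Col8a2 (2.64, SE 0.32), Col1a1 (2.14, SE 0.21), Col5a2 (1.98, SE 0.19) and Col5a1 (1.63, SE 0.18) were called with both libraries and without either one. The chains of stroma were less even between the libraries. Col3a1 stood at 3.80 CPM in replicate 1 and 27.1 in replicate 2, Col1a2 at 12.8 and 47.6, Col6a1 at 1.64 and 4.60, and Col6a2 at 0.87 and 4.40. The stromal proteoglycan gene Dcn moved with them, at 4.26 and 18.4 CPM, while Pdgfra stood at 0.67 and 0.68 CPM. The sum of the 9 stromal gate markers was 1040 and 834 CPM with none at 0. Of that sum Cdh11 gave 751 and 624 CPM and Foxd1 31.6 and 28.2 CPM. The part of stromal RNA in this result was not tested. All 4 genes were called higher with both libraries (Col3a1 1.5, Col1a2 1.22, Col6a1 1.34, Col6a2 1.05, the plain mean of Col1a2 in the other classes being higher, at 63.4 and 69.3 CPM, because of podocytes) and not without replicate 2, where the differences were -0.40, 0.08, 0.51 and -0.38. Col9a2 (1.59), Col23a1 (1.03) and Col19a1 (2.08) were also called higher. Each lost its call without 1 library: Col9a2 had an adjusted p of 0.16 without replicate 1, Col23a1 of 0.13 without replicate 2, and Col19a1 of 0.25 and 0.066. The 4 lower ones were Col18a1 (-1.81, SE 0.14), Col15a1 (-1.18), Col9a3 (-1.05) and Col27a1 (-0.80). Among these, Col15a1 and Col9a3 were not called without either library (adjusted p of 0.059 to 0.23) and Col27a1 not without replicate 2 (-0.56, adjusted p = 0.13).

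**Figure D4:**
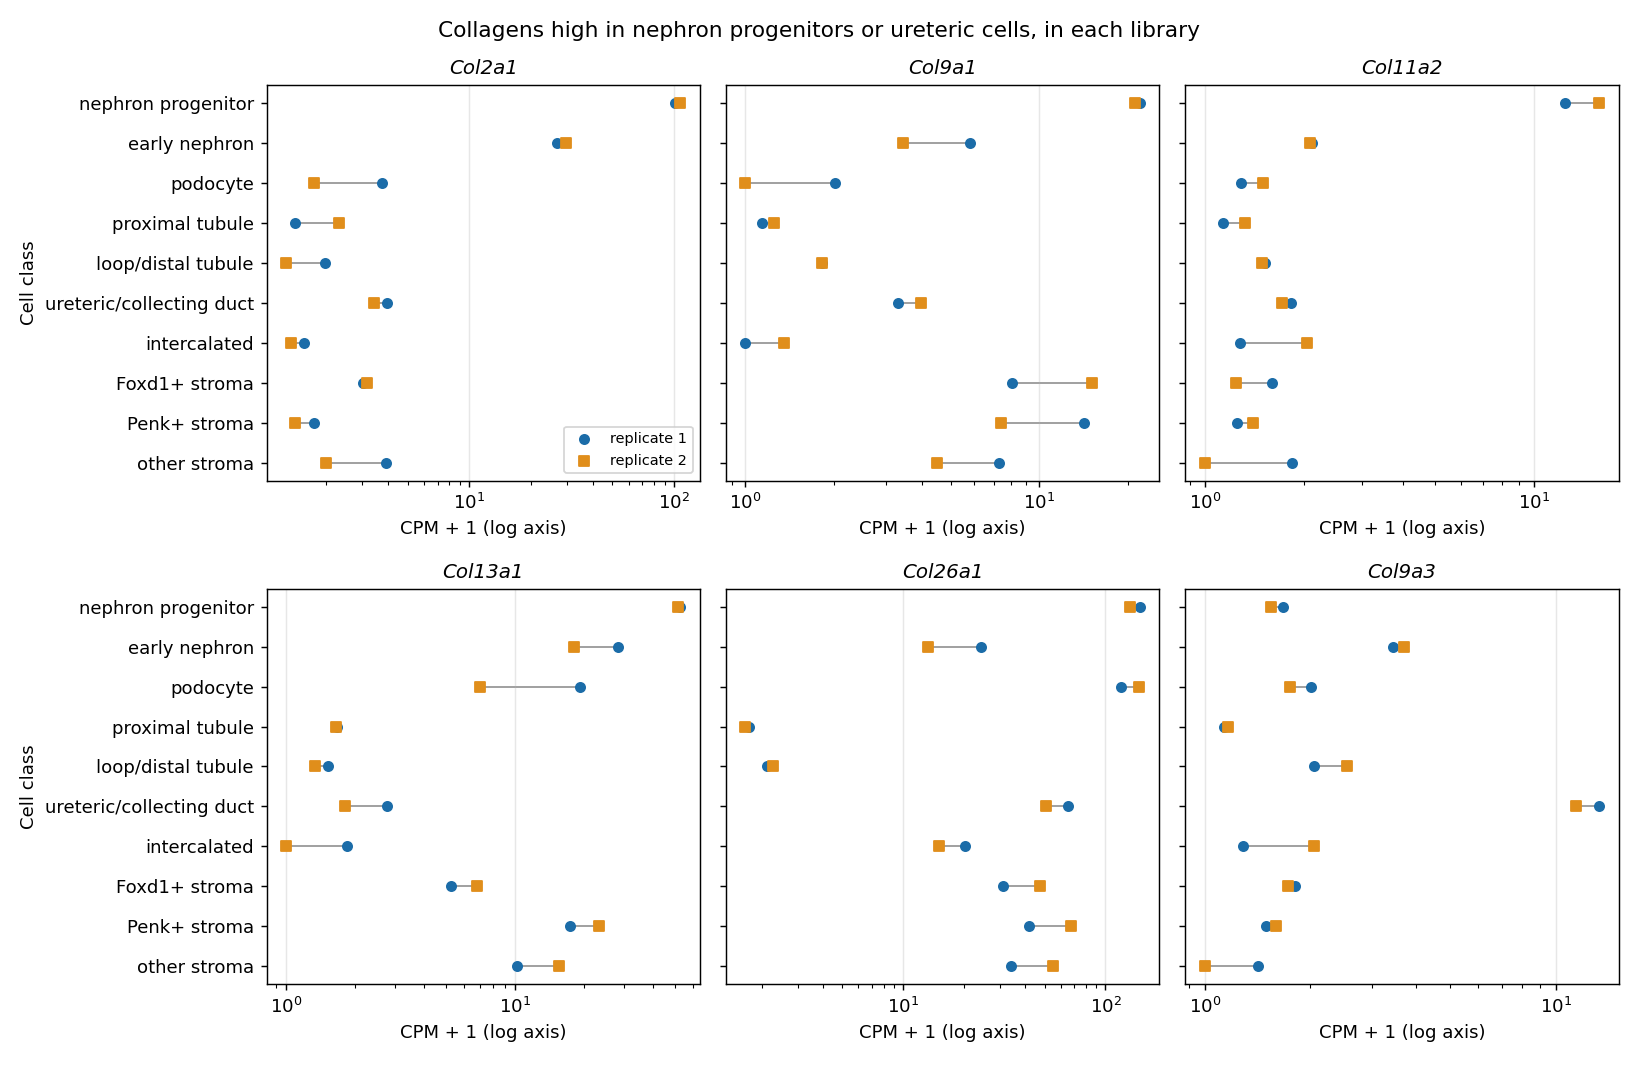
Level of 6 collagens (CPM + 1, log axis) in the 7 epithelial and 3 stromal classes, with a circle for replicate 1 and a square for replicate 2. Col2a1, Col9a1, Col11a2 and Col13a1 are highest in nephron progenitors, Col26a1 is high in nephron progenitors and podocytes, and Col9a3 is highest in the ureteric and collecting duct at 12.2 and 10.4 CPM.

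The ureteric epithelium and collecting duct, the branching tree that drains the kidney, held Col9a3 at 12.2 and 10.4 CPM, above each other class, the next being early nephron at 2.44 and 2.70 CPM (log2 difference from the other epithelial classes 3.77, SE 0.28, edgeR adjusted p = 2.44e-10). Here 10 of 35 collagens were higher (20.9% of all genes) and 4 were lower (12.0%). The median log2 difference was 0.18, against 0.00 over all genes. Col11a1 (13.7 and 10.3 CPM; 2.74, SE 0.24), Col14a1 (2.29, SE 0.24), Col15a1 (2.08, SE 0.27), Col26a1 (2.03, SE 0.19), Col27a1 (1.56, SE 0.19), Col5a2 (1.07, SE 0.21) and Col18a1 (0.59, SE 0.11) were called with either library left out. Col25a1 (1.09) and Col9a1 (1.22) were also called, as were the lower Col1a2 (-1.33), Col5a1 (-1.29, SE 0.28), Col23a1 (-1.17) and Col12a1 (-0.96). Of these, Col25a1 was lost without replicate 1 (adjusted p = 0.30), Col1a2 without replicate 2 (adjusted p = 0.25), and Col9a1, Col23a1 and Col12a1 without either. For Col9a1 the plain means ran the other way, 2.30 and 2.94 CPM against 4.61 and 4.0, because of its level in nephron progenitors. In replicate 2 they did so for Col26a1 too, 49.9 against 50.8 CPM (64.2 against 51.4 in replicate 1), and for Col25a1, 6.95 against 9.42 CPM.

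Col27a1, a fibrillar chain with a short helix, was highest in intercalated cells, the acid-base cells of the collecting duct, at 122 and 76.5 CPM. Foxd1-positive stroma had 55.0 and 86.9 CPM and ureteric and collecting duct 60.7 and 42.8. The range of Foxd1-positive stroma overlapped those of both other classes, so its place between them is not settled by 2 libraries. Podocytes held 1.44 and 3.76 CPM. Col24a1, the other fibrillar chain of this branch of the family, was detected in intercalated cells at 19.4 and 19.6 CPM, against 0.25 to 5.33 CPM in the other epithelial classes.

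Mural cells, here pericytes with mesangial cells and renin cells, carried the stromal chains at lower levels. Compared with epithelial classes, 19 collagens were higher (17.5% of all genes) and 2 were lower (23.7%), with a median log2 difference of 2.96 against -0.25 over all genes. Compared with stroma, 5 were higher (9.86% of all genes) and 20 lower (11.2%), with medians of -1.76 and -0.15. Both comparisons use the same mural sums. Without replicate 2 fewer collagens were called in the second comparison, and fewer of all genes were too. In pericytes and mesangial cells Col1a1 stood at 473 and 702 CPM, Col1a2 at 782 and 998 and Col3a1 at 790 and 959. In renin cells Col3a1 stood at 31.1 and 32.2 CPM. The plain means of the 2 mural classes were 281 and 405 CPM for Col1a1, 547 and 607 for Col1a2 and 410 and 496 for Col3a1, against 1345 and 1267, 1591 and 1550, and 1779 and 1674 CPM in stroma. The fitted log2 differences, which average the logs of the mural classes with equal weight and so count renin cells as much as pericytes and mesangial cells, were -2.44 (SE 0.22), -1.71 (SE 0.27) and -3.38 (SE 0.39).

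The mural cells fell below stroma also for Col14a1 (-3.78, SE 0.32), Col15a1 (-3.74, SE 0.45), Col24a1 (-4.04, SE 0.36), Col6a1 (-2.85, SE 0.30), Col6a2 (-2.54, SE 0.27), Col16a1 (-1.76, SE 0.27) and Col8a2, which had 1.15 and 0.96 CPM and no count in renin cells (-6.83, SE 0.72). Col9a1, with no count in renin cells, was lower too (-6.09, SE 1.42). Each of these was called with either library left out. The lower calls of Col9a2 (-5.81), Col6a6 (-5.31) and Col7a1 (-4.54), all with no count in renin cells, were lost without either library. Those of Col11a1 (-1.83), Col26a1 (-1.66), Col27a1 (-1.53), Col5a1 (-0.85), Col6a3 (-0.69) and Col12a1 (-0.46) were lost without replicate 2, with adjusted p of 0.051 to 0.51. The 5 higher ones were Col18a1 (120 and 125 CPM in pericytes and mesangial cells; 2.20, SE 0.14, edgeR adjusted p = 1.37e-11), Col19a1 (5.03, SE 0.61), Col28a1 (37 counts against 2; 7.64, SE 0.94, with 2 stromal classes at 0), Col13a1 (1.84) and Col5a3 (1.66). Col13a1 had a difference of 0.18 without replicate 2, and Col5a3 of 0.82 without replicate 1, neither called.

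Against epithelium the mural rise was largest for Col5a3 (8.46), Col8a1 (7.49), Col28a1 (7.28) and Col19a1 (6.84), each with 1 or 2 epithelial classes at 0, and then for Col6a3 (6.57, SE 0.39), Col12a1 (6.52, SE 0.17), Col5a2 (5.67, SE 0.15), Col1a2 (5.09, SE 0.27), Col5a1 (5.09, SE 0.21), Col6a1 (4.99), Col3a1 (4.80), Col6a2 (4.79) and Col1a1 (4.73). Col25a1, a transmembrane chain, was highest of all classes in pericytes and mesangial cells, at 106 and 90.9 CPM (4.39, SE 0.34), with 77.9 and 77.2 in renin cells. Col16a1 (3.85, SE 0.51) was also higher. Col13a1 (3.54), Col14a1 (2.82), Col11a1 (2.35) and Col23a1 (1.88) were called as well, but Col13a1 and Col14a1 not without replicate 2 (adjusted p = 0.063 and 0.34), Col23a1 not without replicate 1 (0.17) and Col11a1 not without either. The lower ones were Col18a1 (-1.02, SE 0.11) and Col20a1 (-4.05), whose call was lost without either library (adjusted p = 0.20 and 0.27).

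Renin cells, the juxtaglomerular cells that secrete renin, differed in makeup from other mural cells. Only 26 and 29 cells were measured. Types I and III supplied 21.1% and 23.7% of their collagen UMIs, against 56.9% and 61.6% in pericytes and mesangial cells. Col12a1 led in replicate 1 (346 CPM, with 227 in replicate 2) and Col5a2 in replicate 2 (264 CPM, with 308 in replicate 1), while Col3a1 stood at 31.1 and 32.2 CPM. Col28a1, a chain related to von Willebrand factor-domain collagens and known from peripheral nerve, had 38.9 and 38.6 CPM from 10 and 18 counts, and no class in the fit had a mean above 2.29 CPM otherwise. It had no count in Foxd1-positive stroma. After thinning, 3.85% (0.0973 to 19.6) and 13.8% (3.89 to 31.7) of renin cells had a Col28a1 UMI. The libraries disagreed on other chains in these cells: Col8a1 stood at 175 and 19.3 CPM, Col5a3 at 93.4 and 12.9, and Col13a1 at 23.4 and 161. The Schwann cell marker Sox10 was at 0 in renin cells, as in every other class but nephron progenitors (mean 0.034 CPM). It served as a gate marker, so this 0 says nothing about the source of Col28a1, which was not tested.

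Smooth muscle had 55 and 15 cells, under the 20 per library asked of a class, and was compared in a second fit that admits classes of 10 cells, a choice made after seeing the data. Relative to pericytes and mesangial cells, 3 of 35 collagens were higher (5.38% of 16677 genes) and 5 lower (4.38%). The median was 0.21 against -0.08 over all genes. Without replicate 1 fewer collagens were called, and fewer of all genes were too. Col23a1 stood at 117 and 43.7 CPM against 14.2 and 12.3 (2.94, SE 0.53), Col8a1 at 70.9 and 195 against 38.4 and 21.1 (2.13, SE 0.58), and Col9a2 at 11.6 and 6.72 against 0 and 0.38 (5.74, SE 1.14). Lower were Col18a1 (30.4 and 26.9 CPM against 120 and 125; -1.90, SE 0.27), Col25a1 (-2.98, SE 0.63), Col14a1 (-2.40, SE 0.49), Col11a1 (-2.50) and Col26a1 (-3.04). Leaving out replicate 1 ended the calls of Col23a1, Col9a2, Col11a1 and Col26a1 (adjusted p of 0.18 to 0.68), and leaving out replicate 2 that of Col8a1 (1.33, adjusted p = 0.30).

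Endothelium held few of the stromal chains. Compared with stroma, 24 collagens were lower (25.4% of all genes) and 3 higher (24.2%), with a median log2 difference of -3.94 against -0.08 over all genes. Col1a1 stood at 5.7 and 5.27 CPM in Plvap-positive cells (-7.11, SE 0.27), Col3a1 at 7.32 and 5.63 (-7.10, SE 0.41), Col6a2 at 0.57 and 1.43 (-7.57, SE 0.33) and Col14a1 at 3.14 and 7.23 (-7.15, SE 0.32). Col1a2, Col6a1, Col6a3, Col8a2, Col11a1, Col9a1, Col26a1, Col24a1, Col16a1, Col5a1, Col7a1, Col12a1, Col6a4, Col27a1, Col9a2 and Col23a1 were lower by -6.94 to -2.04. Col6a6 (-5.77) and Col5a3 (-6.20) were lower with no count in Plvap-low cells. Col8a1 (-1.66) and Col5a2 (-1.50, SE 0.15) completed the list. Col5a3 and Col8a1 were not called without replicate 1 (adjusted p = 0.075 and 0.094). The 3 higher ones were Col15a1, Col18a1 and Col28a1 (4.45). Col28a1, at 1.46 and 0.58 CPM, lost its call without either library.

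Compared with epithelium, 12 collagens were higher in endothelium (25.6% of all genes) and 6 lower (31.5%). The median was -0.03, or 0.00 with Col6a5, which had no endothelial count, at its bound, and -0.15 over all genes. Without replicate 1 fewer collagens were called, and fewer of all genes were too. Col15a1 (5.85, SE 0.21) and Col5a2 (92.3 and 72.2 CPM in Plvap-positive cells; 4.37, SE 0.14, edgeR adjusted p = 1.84e-18) led in abundance, with Col25a1 (54.7 and 59.2 CPM; 3.94, SE 0.25), Col8a1 (5.32, SE 0.60), Col12a1 (3.07, SE 0.22) and Col5a1 (1.6, SE 0.28). Col13a1 (2.08), Col16a1 (1.17), Col6a3 (1.58), Col3a1 (1.07), Col6a4 (2.98) and Col28a1 (4.09) were called with both libraries. If all haemoglobin counts are assigned to free RNA, it made up 43.9% and 100% of the UMIs of Plvap-positive endothelium. Col3a1 stood at 104 and 138 CPM in barcodes without cells, above its level in those endothelial cells. The part of free RNA in these calls by that estimate was not tested. Leaving out replicate 1 ended the call of Col3a1, Col6a3 and Col28a1, leaving out replicate 2 that of Col16a1, and leaving out either that of Col13a1 and Col6a4. Lower were Col26a1 (-3.40, SE 0.39), Col27a1 (-1.68, SE 0.31), Col2a1 (-2.77), Col9a1 (-2.69), Col11a1 (-1.70) and Col9a3 (-1.45). The calls of Col9a1, Col11a1 and Col9a3 were lost without either library and that of Col2a1 without replicate 1 (-1.66, adjusted p = 0.17).

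The multiplexins differed in their main classes, and both were present in endothelium. Col18a1, whose product is a heparan sulfate proteoglycan of basement membranes, stood between 194 and 372 CPM in the 6 epithelial classes beyond nephron progenitors, which held 82.7 and 87.0 CPM. It was at 433 and 339 CPM in Plvap-low endothelium, 141 and 168 in Plvap-positive endothelium, 120 and 125 in pericytes and mesangial cells, and 22.2 and 23.5 in Foxd1-positive stroma. Stroma lay below epithelium with no overlap of values (log2 difference -3.22, SE 0.10, edgeR adjusted p = 5.46e-19), and the difference between endothelium and epithelium was not called (-0.03, adjusted p = 0.82). In thinned cells Col18a1 had a UMI in 64.1% and 63.4% of podocytes and in 3.59% and 5.59% of Foxd1-positive stromal cells, while macrophages gave 3.60% and 0%, where 0 of 78 cells has an exact interval up to 4.62%. Unthinned, the shares were 91.2% and 92.9%, 14.4% and 20.4%, and 7.19% and 5.13% at median depths of 9272 and 13754, 12021 and 16840, and 9817 and 10109.5 UMIs. Macrophages held 6.54 and 3.81 CPM of Col18a1. The thinned stromal share was not above the macrophage share in replicate 1 and was above it in replicate 2.

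Col15a1, which links basement membranes to the fibrils beneath, stood at 224 and 231 CPM in Plvap-positive endothelium, 90.5 and 101 in Plvap-low endothelium and 201 and 367 in Penk-positive stroma. It was at 19.1 and 18.9 CPM in Foxd1-positive stroma, 6.54 and 3.84 in pericytes and mesangial cells and 0.47 to 10.5 across epithelial classes. Endothelium exceeded stroma (1.56, SE 0.20, edgeR adjusted p = 5.01e-07), as it did for Col18a1 (3.18, SE 0.12). After thinning, 45% (40.9 to 49.1) and 43.9% (39.7 to 48.1) of Plvap-positive endothelial cells had a Col15a1 UMI, with 0.497% and 0.283% in nephron progenitors. Unthinned, these were 76.5% and 77.4% at 11291.5 and 13293 UMIs, and 3.31% and 5.10% at 18295 and 25134 UMIs. Both multiplexins were seen together in 10.6% and 10.7% of thinned endothelial cells, Col15a1 alone in 31.3% and 32.2% and Col18a1 alone in 19.1% and 17.7%.

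**Figure D5:**
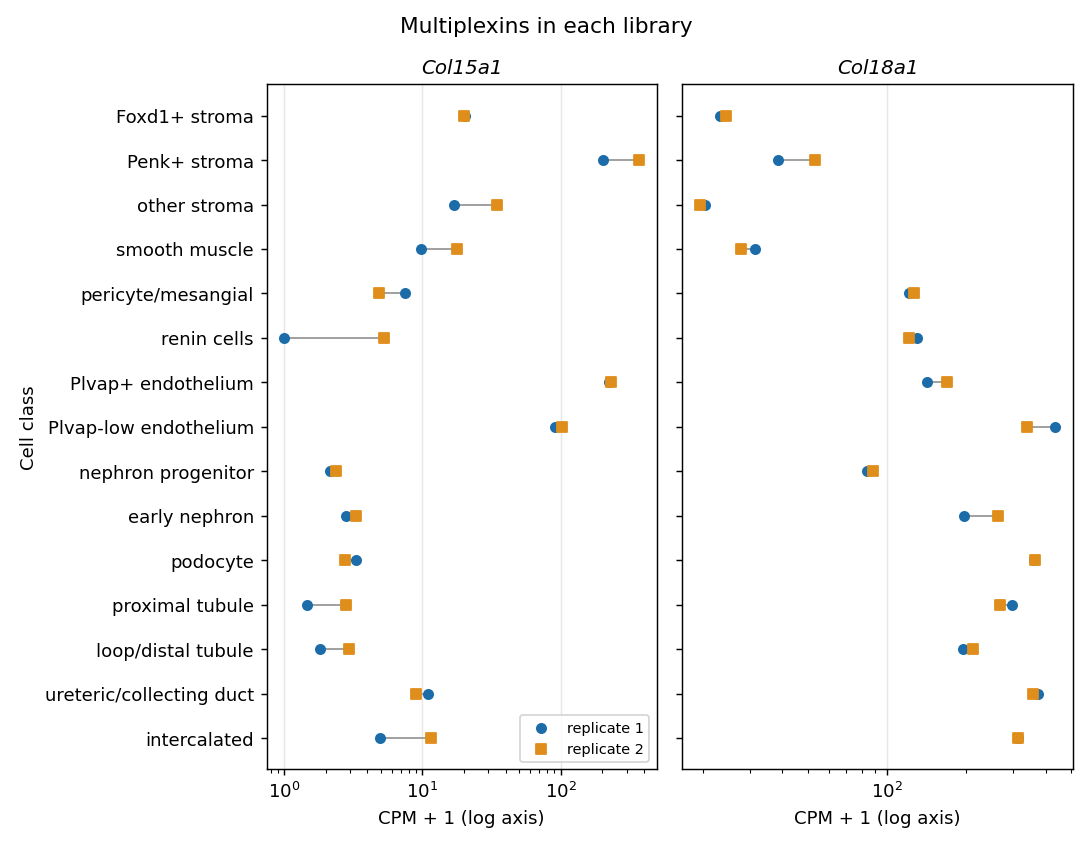
Level of Col15a1 and Col18a1 (CPM + 1, log axis, with a separate scale for each) in 15 cell classes, with a circle for replicate 1 and a square for replicate 2. Col15a1 is high in Penk-positive stroma and endothelium, and Col18a1 is high in epithelial classes and Plvap-low endothelium and low in stroma and smooth muscle.

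Within endothelium, Plvap, a protein of fenestrated capillaries, separates most capillary cells from those of larger or glomerular vessels. Of 35 collagens, 2 were higher in Plvap-positive cells (4.68% of all genes) and 3 lower (2.72%). The median was -0.64, or -0.69 with Col5a3, Col6a6 and Col11a2, which had no count in Plvap-low cells, at their bound and Col6a5, which had none in either, left out, and 0.15 over all genes. Col15a1 was higher (1.39, SE 0.30), as was Col13a1, at 26.1 and 50.8 CPM against 4.98 and 4.40 (3.08, SE 0.82). Col18a1 was lower (-1.19, SE 0.17), as were Col12a1, at 9.22 and 11.1 CPM against 39.0 and 52.8 (-1.99, SE 0.33), and Col5a2, at 92.3 and 72.2 against 131 and 196 (-0.78, SE 0.23). Without replicate 2, Col13a1 (log2 difference 2.61) and Col5a2 (-0.65) were no longer called, and Col5a2 was not called without replicate 1 either (-0.85). Stromal markers moved with these: the 9 summed to 18.3 and 19.7 CPM in Plvap-positive and 53.1 and 33 CPM in Plvap-low cells. Their part in the lower calls was not tested.

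Within stroma, Foxd1 marks cells nearer the cortex and Penk cells of the medulla. Of 35 collagens, 8 differed, 6 higher in Penk-positive cells (2.41% of all genes) and 2 lower (1.92%). The median was 0.36, or 0.29 without Col28a1, which had at most 2 counts in these classes, and -0.01 over all genes. Col15a1 had the largest difference: 201 and 367 CPM against 19.1 and 18.9 (3.88, SE 0.30, edgeR adjusted p = 2.44e-08). A UMI of Col15a1 was seen in 34.5% and 44.0% of thinned Penk-positive cells and in 3.59% and 3.58% of Foxd1-positive cells. Col23a1 stood at 64.9 and 168 CPM against 15.5 and 14.6 (2.92, SE 0.37), Col7a1 at 10.2 and 23.2 against 2.22 and 3.39 (2.54, SE 0.44), Col9a2 at 7.22 and 9.20 against 1.21 and 1.81 (2.41, SE 0.52), Col13a1 at 16.4 and 22.2 against 4.23 and 5.80 (1.93, SE 0.53), and Col18a1 at 37.3 and 52.2 against 22.2 and 23.5 (0.98, SE 0.18). Col24a1 was lower, at 31.1 and 31.8 against 78.2 and 96.6 (-1.47, SE 0.21), as was Col8a2, at 15.9 and 17.2 against 35.3 and 44.7 (-1.26, SE 0.23). In each of the 8 the values of the classes did not overlap between libraries. Without replicate 2, Col15a1, Col23a1 and Col24a1 were called. Col7a1, Col9a2, Col13a1, Col18a1 and Col8a2 were not, at log2 differences of 1.90, 2.29, 1.77, 0.72 and -1.08. Col13a1 was not called without replicate 1 either (2.01). Types I, III and VI were not called: Col1a1 differed by -0.07, Col3a1 by 0.49 and Col6a1 by 0.67, with adjusted p of 0.995, 0.75 and 0.233.

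The Col15a1 window is shown because this gene differed both between the stromal and between the endothelial subclasses. It is the 250 bases before the RefSeq start at chr4:47207762-47208011 (GRCm38.p6, plus strand), and it holds none of the 4 motifs, so no letter is in capitals.
Col15a1: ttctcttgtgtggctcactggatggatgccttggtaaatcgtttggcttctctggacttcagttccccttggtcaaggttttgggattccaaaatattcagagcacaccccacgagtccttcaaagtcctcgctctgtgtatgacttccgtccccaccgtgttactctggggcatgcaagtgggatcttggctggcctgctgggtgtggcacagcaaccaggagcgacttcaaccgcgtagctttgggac

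Of the 38 collagens, 7 stayed under 10 CPM in every class on the mean of both libraries. Col9a2 (FACIT IX) and Col6a6 came closest, with 9.15 CPM in smooth muscle and 9.02 CPM in Penk-positive stroma. Col20a1, a FACIT, was highest in loop of Henle and distal tubule (4.75 and 3.80 CPM) and lower in stroma than in epithelium (-1.23, SE 0.31). Col6a5, Col17a1, Col22a1 and Col10a1 had class means of at most 3.02, 3.54, 1.95 and 0.72 CPM. Col10a1 (the hypertrophic cartilage chain), Col17a1 (the hemidesmosome chain) and Col22a1 had too few counts to be tested. Col10a1, Col9a3 and Col18a1 overlap a gene on the opposite strand in their last 1000 bases (Nt5dc1, Tcfl5 and Slc19a1).

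Genes that build, process and bind collagens were followed from a list of 54, of which 53 were tested. In stroma against epithelium 46 were higher and 4 lower, with a median log2 difference of 2.08, where 31.3% of all genes were higher and 34.9% lower with a median of -0.08. These were 17 of 19 genes of biosynthesis, 11 of 12 of processing and crosslinking, all 6 fibril-associated proteoglycans, 5 of 8 receptors and 7 of 8 turnover genes tested. Ddr2, a receptor tyrosine kinase activated by fibrillar collagen, stood at 107 and 120 CPM on average in stroma and 0.41 and 0.64 CPM in epithelium (7.82, SE 0.16), and Ogn, a small fibril-binding proteoglycan, at 190 and 179 against 0.69 and 1.20 CPM (7.67, SE 0.19). Colgalt2, a collagen galactosyltransferase, was lower (-2.44, SE 0.47), as was Ddr1, the epithelial relative of Ddr2, at 17.9 and 20.7 against 88.9 and 84.2 CPM (-2.0, SE 0.10). Mural cells had 5 of these genes above stroma (9.86% of all genes) and 17 below (11.2%), with medians of -0.48 and -0.15. Itga10 (2.90, SE 0.57) and Itga1 (503 and 525 against 139 and 169 CPM; 1.68, SE 0.16), integrin subunits that bind collagens, were higher, and the proteoglycans Dcn (-3.45, SE 0.38) and Lum (-2.89, SE 0.59) were lower. In podocytes 29 of the 53 were higher (26.4% of all genes) and 7 lower (27.6%) than in the other epithelial classes, with medians of 1.3 and -0.07. In nephron progenitors 29 were higher (30.5% of all genes) and 12 lower (29.2%), with medians of 0.64 and -0.01.

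Over the means of 16 classes, on the log2(CPM + 1) scale, the genes most like Col1a1 were Col6a1 (Pearson r = 0.983), Gm16141, Col6a2 (0.98), Gm11627 and Tmem45a. Those most like Col6a1 were Col6a2 (0.993), Ogn (0.988), Col3a1, Col1a1 and Tmem45a. For Col15a1 they were Gm12426 (0.936), Gm3364, Rflna, Mrgpre and Nav3, and for Col18a1 Bend7 (0.943), Bcam, Adamts16, Shroom4 and Myo6. The points share 2 libraries, so these values describe the pattern and carry no test.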

How the data were processed

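The deposited matrices hold raw UMI counts per gene and barcode. Cell Ranger 4 is named per the file headers, and Cell Ranger 6.0.1 with mm10 per the submitters' processing notes. The highest Scrublet scores, 0.8% per 1000 cells, were removed as doublets (244 and 141 cells). A cell entered a class with at least 2 marker genes and 3 marker UMIs, and 540 and 394 mixed cells were left out. Counts were summed per class and library and fitted in edgeR 4.0.16 (R 4.3.3, quasi-likelihood, TMM, filterByExpr, library as block; 16 classes, 32 sums) with a threshold of 0.05. A class entered if each library gave it 20 or more cells. The fit was tested on simulated counts for stroma against epithelium alone. For shares of cells, each cell was thinned to 3000 UMIs, and exact (Clopper-Pearson) intervals cover counting error only. Free RNA was read from barcodes with 100 to 500 UMIs. Members and gene lists were chosen with earlier results of these data known. Members with at least 10 CPM in a class, or called, were named; of pathway genes, the 2 largest changes per direction in stroma against epithelium and mural cells against stroma; and the 5 genes most like each of Col1a1, Col6a1, Col15a1 and Col18a1. Alternatives included DESeq2 1.42.0.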

Additional observations from a re-analysis of the deposited data

How the results depend on the processing

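Of 195 fold changes refitted under up to 16 settings, 2763 of 3009 values kept direction and call, 241 lost the call and 5 changed sign. Those were Col13a1 and Col26a1 in stroma against epithelium with 4 compartment sums (-0.60 and -0.083), Col3a1 in nephron progenitors with a doubled doublet rate (-0.091), and Col3a1 and Col6a2 there without replicate 2 (leaving out 1 library gave -0.40 to 2.41 and -0.38 to 1.86). With each cell thinned to 3000 UMIs, which leaves fewer counts, the collagens called, of 26 tested, were 8 for endothelium against epithelium (44.7% of all genes tested), 6 for podocytes (41.2%), 13 for nephron progenitors (45.5%), 6 for ureteric and collecting duct (15.8%) and 4 for smooth muscle (5.32%). Without a filter on low counts they were, of 38, 14 for Penk against Foxd1 stroma (4.11%) and 8 for Plvap (6.28%); with at least 10000 UMIs or no Scrublet removal, Plvap had 3 of 35 (5.49% and 6.36%). The cause was not tested. Leaving out 1 library gave 9 to 12 for endothelium against epithelium, 16 to 21 for mural against stroma, 3 to 7 for Penk, 3 to 4 for Plvap and 5 to 9 for smooth muscle; a lone sum is assumed to vary like the others. Those fits tested 36 or 37 collagens, and each called a smaller share of all genes than the fit with both libraries. With no replicate block, the library being the pairing of the sums, 32 of 35 collagens were called in stroma against epithelium (63.0% of all genes). Calls were 23 in mural against stroma (19.2%), 6 for Penk (2.81%) and 12 for ureteric and collecting duct (26.6%). The median of all genes for Plvap was 0.15 with TMM, 0.01 with median-ratio size factors and -0.06 with DESeq2. Free RNA scaled by haemoglobin was not run, since its estimate reached 100% in several classes; subtraction at the UMIs of barcodes without cells, chosen after seeing the data, replaced it. It ended 6 calls: Col3a1 (adjusted p = 0.080) and Col6a3 (0.055) in endothelium against epithelium, Col6a3 in mural cells against stroma (0.063), Col5a2 for Plvap (0.070), and Col12a1 (0.059) and Col9a1 (0.052) in ureteric and collecting duct. In each member's highest class, the level moved by no more than the spread between libraries for 31 of 31 members under it. Free RNA weighs least there, so this check does not cover the low levels of other classes. Without thinning, 29 of 31 shares in those highest classes moved by more than the spread between libraries. Thinning only removes UMIs, so an unthinned share can only be equal or higher. The cause of the size of these moves was not tested. Classes of few cells (renin, smooth muscle, Plvap-low endothelium) limit the precision.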
